A study of Sminthopsis crassicaudata with 9 samples.

Results

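Voltage-gated and potassium channel genes are the genes that let excitable and transporting cells set and change the voltage across their membranes. They were taken as every gene model whose symbol begins with KCN (potassium channels), is an SCN sodium channel A or B gene, or is a CACNA, CACNB or CACNG calcium channel gene. There were 116 such genes among the 21703 gene models of the count table. The rule uses symbols and no expression or chromatin value, though it was set with earlier results of these data known. The 116 are 78 pore genes, 8 modulatory potassium channel subunits that act only within a complex, and 30 auxiliary subunits. The names of 14 further genes of the same pattern stand in a RefSeq list of another dunnart assembly, among them CACNA1C, the main calcium channel pore of heart, and these were not analysed here.

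Potassium channels hold cells near rest and end action potentials, sodium channels start them, and calcium channels turn the voltage change into contraction, secretion or gene regulation. Skeletal muscle, heart, nerve and transporting epithelium each favour some members, while other members are shared between them. RNA of a member therefore does not by itself name the cell type it came from. H3K4me3 is a histone mark of gene starts, and H3K27ac is a histone mark of active starts and enhancers. Both were measured here beside RNA in the face of the fat-tailed dunnart, a marsupial whose young are born with an early face that already has to suck.

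All samples were facial tissue of pouch young on the day of birth, with no treatment named and no second tissue or age. The study describes dissection to the facial prominences (mandibular, maxillary and fronto-nasal), with tongue, neural tube and eye primordia taken away. RNA came from 3 libraries, FP1, FP2 and FP3, each a pool of 2 young, and chromatin from 2 pools of 26 and 27 heads, each with H3K4me3, H3K27ac and input. Counts assigned to usable gene models were 17419099, 16358621 and 16096971. RNA levels are given as TPM (counts divided by exon length and scaled to the same sum in every library) in the order FP1, FP2, FP3, with means ± SD over the 3 libraries. A gene is called expressed over 1 TPM in all 3 libraries and silent under 0.5 TPM in all 3. Mark strength is the fold enrichment over input at the peak summit, given for pool 1 and then pool 2. A start site (TSS) is the outer exon end of a model lifted from the Tasmanian devil, and a mark is at the TSS when a region found in both pools has its edge within 1 kb of it. With a single group no comparison between conditions exists, so every value below is a description and carries no test. In whole tissue, few cells with much RNA and many cells with little cannot be told apart.

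Skeletal muscle markers were plentiful, summing to 22591, 19417 and 25664 TPM, and epithelial markers summed to 4910, 3686 and 6503 TPM. Neuron markers summed to 97.6, 120 and 117 TPM, with 9 of 11 expressed and the neurofilament genes NEFL and NEFM listed at 0. Glial and Schwann cell markers summed to 96.5, 95.4 and 58.7 TPM, smooth muscle and pericyte markers to 922, 865 and 666 TPM, and blood and immune markers to 5.2, 10.8 and 3.68 TPM. Heart markers summed to 408, 367 and 809 TPM, nearly all of it TNNT2 and NKX2-5, with 3 of 7 expressed. The third, TNNI3, had 3.36, 1.14 and 1.95 TPM. The atrial light chain MYL7 was at 0 and the cardiac factor GATA4 averaged 0.0532 ± 0.0684 TPM. The part these cell types play in the channel levels below was not tested.

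The channel genes were read at low levels, yet their starts carried H3K4me3 about as often as those of genes with a symbol. Of the 116, 51 (44.0%) were expressed, against 75.3% of the 14158 genes with a symbol. Silent members numbered 39 (33.6%), against a background of 15.5%, and the other 26 lay in between. Over all 21692 usable gene models, unnamed ones included, 33.7% were silent, 56.5% expressed and 67.7% marked by H3K4me3 at the TSS, so the members' share of silent genes exceeded that of genes with a symbol but not that of all models. Their median level was 1.11 TPM, against 12.8 TPM for genes with a symbol. The members' median was 0.823, 1.45 and 0.800 TPM in FP1, FP2 and FP3, so FP2 stood higher than the other libraries. H3K4me3 was at the TSS of 96 members (82.8%; background 83.1%) and H3K27ac at the TSS of 99 (85.3%; background 85.9%). Both shares lie close to those of genes with a symbol. Both marks were present at 93 starts, H3K4me3 without H3K27ac at 3 (KCNIP3, SCN2A and KCNH6), H3K27ac without H3K4me3 at 6, and neither at 14.

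**Figure D1:**
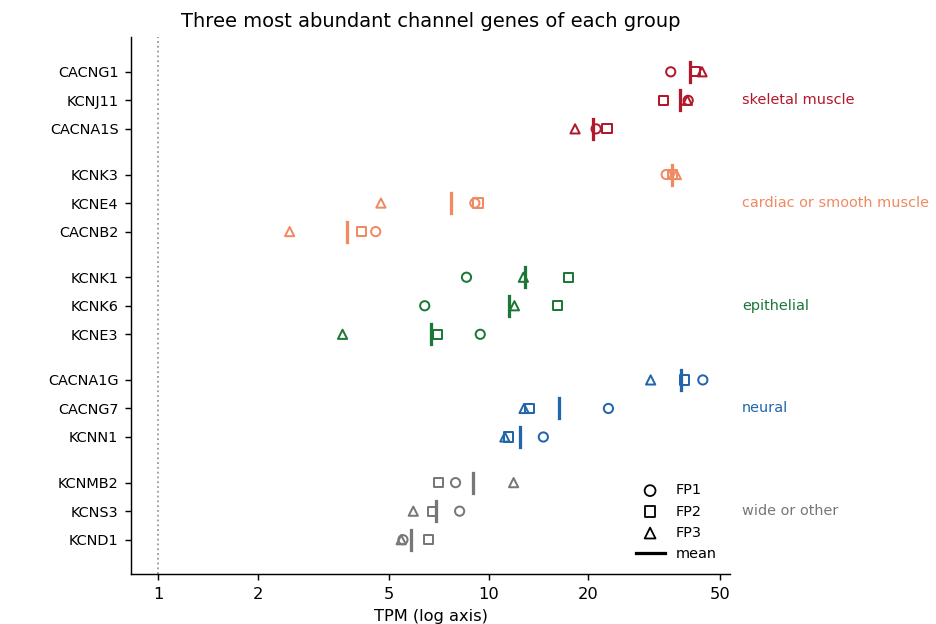
RNA level in TPM (log axis) of the 3 most abundant members of each group, with a symbol for each library (FP1 circle, FP2 square, FP3 triangle) and a bar at the mean. CACNG1, CACNA1G, KCNJ11 and KCNK3 lie above 30 TPM in every library, apart from the rest.

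In all 3 libraries 9 members exceeded 10 TPM, and 4 of them stood above 30 TPM in each. CACNG1, the gamma subunit of the skeletal muscle L-type calcium channel (scaffold00103_pilon_pilon, 1623346 to 1644698, minus strand), had 35.5, 42.2 and 44.1 TPM. CACNA1G, a T-type calcium channel pore that opens near rest (scaffold00100_pilon_pilon, 3093782 to 3181679, plus strand), had 44.4, 39 and 30.9 TPM. KCNJ11, the Kir6.2 pore of the ATP-sensitive potassium channel (scaffold00013_pilon_pilon, 26283021 to 26285914, minus strand), had 40.1, 33.7 and 39.8 TPM. KCNK3, the TASK-1 leak channel that responds to acid (scaffold00027_pilon_pilon, 13000312 to 13063571, minus strand), had 34.4, 35.9 and 36.9 TPM. The ranges of these 4 overlap, with means of 40.6 ± 4.54 TPM, 38.1 ± 6.81 TPM, 37.9 ± 3.64 TPM and 35.7 ± 1.27 TPM, so their order is not settled by these libraries. The most abundant of them stood above 75.5% of the genes with a symbol. Next came CACNA1S at 20.7 ± 2.3 TPM, CACNA2D1 at 17.5 ± 5.21 TPM, CACNG7 at 16.3 ± 5.77 TPM, KCNK1 at 12.9 ± 4.42 TPM, and KCNN1 and KCNJ2 at 12.4 ± 1.9 TPM and 12.4 ± 4.2 TPM. KCNK1 and KCNJ2 were below 10 TPM in FP1, at 8.56 and 7.81 TPM.

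**Figure D2:**
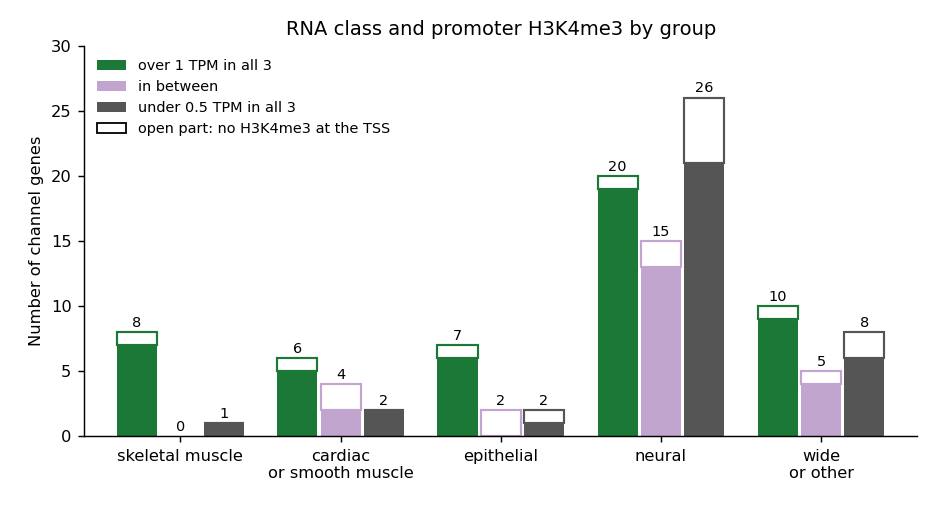
Number of members (vertical axis) that were expressed, in between or silent in each group, with the open part of a bar counting members without H3K4me3 at the TSS. Skeletal muscle members are mostly expressed (8 of 9), while the largest bar of the neural group is its 26 silent genes, 21 of them with H3K4me3.

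The genes were then set into groups by the tissue in which each is best known, a choice made with earlier results of these data known. Some members are known from several tissues, so the shares and medians of a group depend in part on this assignment. The skeletal muscle group had 8 of 9 expressed (88.9%, beside 75.3% of genes with a symbol; median 12.4 TPM). The epithelial group had 7 of 11 expressed (median 3.55 TPM), and the cardiac or smooth muscle group 6 of 12 (median 2.09 TPM). In the neural group of 61, 20 were expressed and 26 silent (median 0.461 TPM). The group of wide or other use had 10 of 23 expressed (median 1.31 TPM). Summed over its members the skeletal muscle group gave 136, 149 and 141 TPM in FP1, FP2 and FP3, and the far larger neural group 161, 153 and 128 TPM. CACNA1G alone held between 30.9 and 44.4 TPM of the neural sums.

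The pore, alpha2-delta and gamma genes of the skeletal muscle calcium channel were all expressed, and the rest of this complex was not analysed here. CACNA1S, the pore that senses voltage for contraction (scaffold00093_pilon_pilon, 5830704 to 5924981, plus strand), had 21.1, 22.8 and 18.2 TPM. CACNA2D1, its alpha2-delta subunit, had 16.6, 23.1 and 12.8 TPM. The gamma subunit CACNG1 was the most abundant member of all. KCNJ2, the Kir2.1 channel that sets the resting potential of muscle, had 7.81, 13.3 and 16.1 TPM, lowest in FP1. KCNC4, a fast potassium channel of muscle, had 6.65, 5.82 and 4.43 TPM, and CACNA1H, a T-type pore of developing muscle, had 4.75, 5.39 and 2.78 TPM. SCN4A, the sodium channel pore that carries the muscle action potential, was far lower at 3.13, 2.41 and 2.85 TPM. KCNA7, a potassium channel pore of muscle and heart, was the 1 silent gene of the 9 at 0.321, 0.462 and 0.293 TPM. The partners of this complex fixed as a list, from the calcium release channel to the calcium stores, had 9 of 11 genes expressed (81.8%, beside 75.3% of genes with a symbol). The leading ones were the calcium pumps ATP2A2 and ATP2A1 with 953 ± 237 and 762 ± 173 TPM and the store protein CASQ2 with 319 ± 145 TPM, while RYR2, the cardiac release channel, was listed at 0.

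Some muscle genes with much RNA had weak H3K4me3 at the TSS. At the TSS of CACNG1 the fold enrichment was 6.6 and 4.99, and at that of CACNA1S 5.27 and 9.49, against a median of 26.5 over the expressed members that carried the mark. SCN4A had no H3K4me3 region at its TSS in either pool, but H3K27ac covered it at 6.16 and 5.37. The 9 expressed partners of the contraction list were as uneven. RYR1, STAC3, CASQ1 and JPH2 had means of both pools between 3.26 and 6.32, CASQ2 had no region, and ATP2A1, JPH3, JPH1 and ATP2A2 ranged from 26.0 to 90.9. KCNJ11, CACNA2D1 and KCNJ2 were close to the members' median at 19.4 and 28.4, 26.3 and 32.9 and 17.3 and 27.7. KCNC4 with 36.6 and 49.9 and CACNA1H with 35.9 and 57.4 were above it.

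KCNK3 led the cardiac or smooth muscle group by a wide margin and varied little between libraries. KCNE4, an inhibitory partner of the KCNQ1 channel, had 9.07, 9.27 and 4.71 TPM, and CACNB2, a beta subunit of the cardiac calcium channel, had 4.55, 4.13 and 2.5 TPM. KCNH2, the hERG channel that ends the cardiac action potential, had 4.8, 3.19 and 3.06 TPM, and SCN4B, a sodium channel beta subunit, had 1.6, 3.96 and 3.61 TPM. KCNJ8, the Kir6.1 pore of pericytes and vessels, had 3.09, 3.38 and 1.93 TPM. KCNJ5 of the atrium reached 0.276, 0.814 and 0.0439 TPM and KCNE1 0, 0 and 0.727 TPM, so a single library carried most of each. KCND3, the pore of the cardiac transient outward current, was silent at 0.386, 0.357 and 0.287 TPM although its start had H3K4me3 of 31.6 and 46.1.

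In the epithelial group KCNK1 and KCNK6, the leak channels TWIK-1 and TWIK-2, had 8.56, 17.4 and 12.7 TPM and 6.4, 16.1 and 11.9 TPM, both lowest in FP1 and highest in FP2. Their starts had H3K4me3 of 56.6 and 46.8 and 55 and 64.8. These values lie above the median of 26.5 of expressed marked members but near the 54.4 of expressed marked genes with a symbol. KCNQ1, a potassium channel pore of secretory epithelia and heart, had 5.43, 5.9 and 4.64 TPM. Its partner KCNE3, which holds the channel open in intestine, had 9.42, 6.98 and 3.61 TPM, highest in FP1. KCNJ15, the Kir4.2 channel, had 3.82, 6.13 and 6.9 TPM, KCNK5 3.08, 5.37 and 2.19 TPM and the calcium-activated KCNN4 4.61, 2.97 and 2.26 TPM. KCNE2, the partner of KCNQ1 in gastric epithelium, had no count in any library, which allows up to 0.499 TPM from a floor of 3 counts. KCNJ13 had 0.27, 0 and 0 TPM. Epithelial markers also differed between libraries, with CDH1 at 41.5, 97.1 and 91.3 TPM and KRT14 at 4372, 2965 and 5840 TPM, and their part in the KCNK1 and KCNK6 values was not tested.

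Neural members ran from over 30 TPM to no count at all. After CACNA1G came CACNG7, an auxiliary subunit of AMPA receptors, with 23, 13.2 and 12.8 TPM. KCNN1, a small-conductance calcium-activated channel, had 14.6, 11.5 and 11.2 TPM, and KCNF1, a modulatory subunit of brain, had 10.8, 10.1 and 15 TPM. SCN3B, a sodium channel beta subunit, had 12.7, 13.1 and 8.05 TPM. The pores that carry the nerve impulse were lower. SCN8A, the sodium channel of nodes of Ranvier, had 2.49, 2.55 and 1.71 TPM, SCN3A of embryonic neurons 1.17, 1.73 and 0.75 TPM, SCN9A of sensory neurons 0.578, 1.97 and 1.01 TPM and SCN2A of central neurons 0.90, 0.82 and 0.29 TPM. The nociceptor sodium channels SCN10A and SCN11A had 0 and 0.0188 TPM on average. KCNA2, an axonal potassium channel, had 3.7, 5.12 and 2.88 TPM, the 1 expressed gene among 8 KCNA pores. Synaptic calcium channel pores CACNA1B and CACNA1A were expressed at 1.74, 1.76 and 1.33 TPM and 1.65, 1.02 and 1.68 TPM. KCNQ3, a pore of the M current that restrains firing, was silent at 0.154 ± 0.0461 TPM.

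Most other expressed neural members had a few TPM. KCNAB3, a beta subunit of the KCNA pores, had 9.27, 9.75 and 7.1 TPM and its relative KCNAB2 3.53, 3.31 and 2.6 TPM. KCNH4, an ELK channel of brain, had 4.09, 6.02 and 2.44 TPM, and KCNK4, a leak channel opened by stretch, had 3.23, 2.34 and 4.44 TPM. The alpha2-delta subunits CACNA2D2 and CACNA2D3 had 2.2, 2.85 and 3.74 TPM and 2.89, 2.58 and 1.1 TPM, the latter lowest in FP3. Of the 15 neural members in between, several were highest in FP2, as was the median of genes with a symbol. KCNMB4, the BK beta subunit of neurons, had 0.791, 2.0 and 0.61 TPM, KCNA4 0.71, 1.53 and 1.0 TPM and KCNQ5, a further M current pore, 0.331, 0.858 and 0.123 TPM. KCNN2 was even at 0.644, 0.633 and 0.58 TPM, and KCNJ3, the GIRK1 pore of neurons and atrium, had 0.359, 0.64 and 0.293 TPM. The lowest silent neural members included KCNK9, the TASK-3 leak channel and a relative of KCNK3, with 0.0555, 0 and 0 TPM, and KCNT2, a sodium-activated channel, with 0.0281, 0.0341 and 0 TPM. KCNK18, a leak channel of sensory neurons, had 0.0401, 0 and 0 TPM and neither mark.

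Among genes of wide or other use, KCNMB2, a beta subunit of the calcium-activated BK channel, led with 7.93, 7.03 and 11.9 TPM. KCNS3, a modulatory subunit, had 8.16, 6.74 and 5.91 TPM, KCND1 5.5, 6.55 and 5.43 TPM and CACNA1D, the calcium channel pore of hair cells and pacemaker cells, 4.31, 4.95 and 2.98 TPM. The BK pore KCNMA1 had 3.0, 3.1 and 2.3 TPM. Auxiliary subunits were expressed in 17 of 30 cases and pores in 32 of 78, while 2 of 8 modulatory subunits were expressed. By family, 7 of 9 CACNA1 pores (77.8%) were expressed, a share near the 75.3% of genes with a symbol. All 3 alpha2-delta genes were expressed. Of the SCN pores and of the KCNH genes 2 of 7 each (28.6%) were expressed. These families are small and their differences were not tested.

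Some genes lay at the edge of a class. KCNMB1, the BK beta subunit of smooth muscle, missed expression through FP3 alone at 1.6, 1.72 and 0.85 TPM, and KCNJ16 through FP1 alone at 0.784, 2.19 and 1.39 TPM. CACNA1A at 1.65, 1.02 and 1.68 TPM and CACNG4 at 1.04, 1.63 and 2.17 TPM passed by a small margin in their lowest library. At the lower limit KCNA7 and KCNA1 (the latter at 0.256, 0.409 and 0.12 TPM) were silent, while KCNIP1 at 0.501, 0.554 and 0.355 TPM and KCND2 at 0.426, 0.561 and 0.396 TPM were in between.

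**Figure D3:**
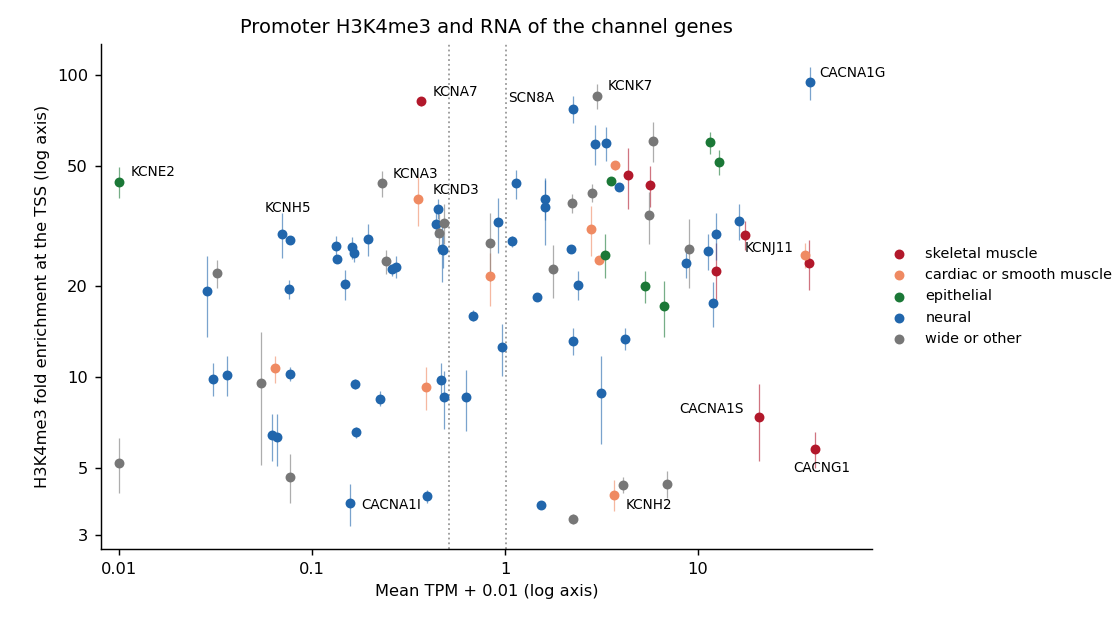
H3K4me3 fold enrichment at the TSS against mean TPM + 0.01 (both log axes) for the 96 members with the mark; vertical lines join pool 1 and pool 2, colours are groups and dotted lines mark 0.5 and 1 TPM. Points over 20-fold stand at all RNA levels, and CACNG1 and CACNA1S combine high RNA with low enrichment.

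RNA level and promoter H3K4me3 were loosely related across the channel genes. Over the 96 marked members, Pearson's r of log fold enrichment with log TPM was 0.208 and Spearman's rho was 0.264. The 2 pools ranked the members alike (r = 0.952, rho = 0.937), and H3K4me3 went with H3K27ac at the 93 starts with both (r = 0.818, rho = 0.830). Points in these relations share the same pools and libraries, so no p-value is given. The strongest start was that of CACNA1G with 83 and 107, followed by KCNK7 with 77.3 and 93.5, KCNA7 with 79.1 and 84.8, SCN8A with 69.4 and 85.2 and KCND1 with 51.4 and 69.8. The weakest marked starts of expressed members were those of KCNIP3 with 3.72 and 3.8, KCNH2 with 3.59 and 4.57, CACNA1D with 4.67 and 4.14 and KCNS3 with 3.98 and 4.89. Stronger regions lay inside KCNH2, 36.0 kb from the lifted start with 38.8 and 57.7, and KCNIP3, 93.2 kb away with 20.7 and 26.0. The strongest inside CACNA1D and KCNS3 had 5.75 and 5.91 and 6.11 and 7.18. Whether such regions mark other starts of these genes was not tested.

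Several of the strongest values belong to regions that also cover other genes. The H3K4me3 region at KCND1 was 49165 bp long and covered 7 other start sites, and its summit lay 8.32 kb from the KCND1 start. At KCNK7 the region was 42929 bp, covered 3 other starts and had its summit 10.9 kb away, nearest to MAP3K11. At KCNK4 it was 23147 bp with a summit 7.95 kb away. At KCNA7 it was 18377 bp, covered 4 other starts and had its summit 16.5 kb away. In 9 of the 96 marked members the region covered another start. The summits of CACNA1G and SCN8A lay 0.628 and 0.277 kb from their own starts.

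**Figure D4:**
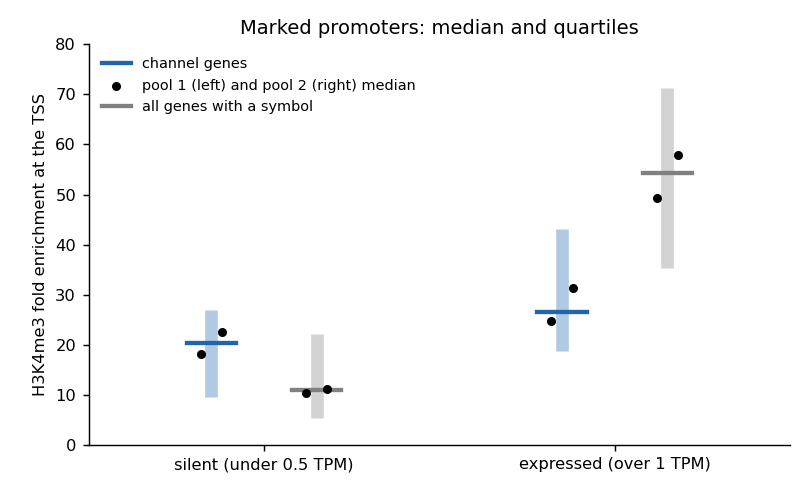
H3K4me3 fold enrichment at marked starts of silent and expressed genes, for channel genes (blue) and all genes with a symbol (grey); lines are medians, bands the quartiles and dots the medians of pool 1 and pool 2. Medians of channel genes are 20.3 (silent) and 26.5 (expressed), those of all genes with a symbol 10.9 and 54.4.

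Most silent channel genes had a marked start. Of the 39 silent members 31 (79.5%) had H3K4me3 at the TSS, against 53.0% of the 2198 silent genes with a symbol. With silence set under 0.1 TPM, 14 members were silent and 9 of them (64.3%) had the mark, against 50.0%. KCNH6 was the 1 gene of the 31 without H3K27ac there. The median fold enrichment of the 31 was 20.3 (quartiles 9.55 and 27.0), against 10.9 (quartiles 5.32 and 22.1) for marked silent genes with a symbol. Expressed marked members had a median of 26.5 (quartiles 18.8 and 43.1), against 54.4 (quartiles 35.2 and 71.2). Silent and expressed members thus overlapped in their quartiles, while those of silent and expressed genes with a symbol lay apart. Both pools gave this order, with member medians of 18.2 (silent) and 24.8 (expressed) in pool 1 and 22.6 and 31.3 in pool 2. The expressed classes differed in RNA level. Above 10 TPM in all 3 libraries stood 9 of the 51 expressed members, against 6986 of 10665 expressed genes with a symbol. The part of RNA level in the difference between 26.5 and 54.4 was not tested. H3K27ac was weaker at silent starts, with medians of 7.16 for silent and 13.0 for expressed members, beside 6.65 and 31.0 for genes with a symbol. The marked region had a median length of 1947 bp in silent and 2952 bp in expressed members, much as in genes with a symbol (1752 and 2725 bp).

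The 2 highest values among silent members came from shared regions. At KCNA7 the summit lay among other genes, as given above. At KCNE2 the region had 39.3 and 49.5, lay 952 bp from the lifted start and covered the start of SMIM11A, which had 12.1 TPM. KCNS2, a modulatory subunit, shared its region with an unnamed gene model 0.045 kb away that was listed at 0. The other 28 silent marked members had a region that covered no other start, with a median of 19.9, and their share of 71.8% stood beside 41.7% among silent genes with a symbol counted the same way.

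KCNA3, the potassium channel pore best known from lymphocytes, had 39.4 and 48.3 at its start with RNA of 0.198, 0.39 and 0.0736 TPM. KCND3 was next, and then KCNH5, an EAG channel of brain, with 24.8 and 34.8 and 0.0283, 0.121 and 0.0316 TPM. KCNIP4, which binds the KCND pores, had 25.2 and 32.2 with 0.253, 0.215 and 0.0846 TPM. KCNJ4, an inward rectifier of brain, had 28.4 and 28.7 with 0.153, 0.0464 and 0 TPM. CACNB4, a calcium channel beta subunit of neurons, had 24.8 and 29.4, and KCNB2, a delayed rectifier, had 24.7 and 29.1. In all of these the summit stood within 1 kb of the gene's own start. KCNQ3 with 24.1 and 27.4, KCNT1 with 24.4 and 24.7 and KCNG3 with 26.3 and 22 followed. KCNA1, the axonal Kv1.1, had 21.2 and 25.1, its beta subunit KCNAB1 21.7 and 23.8 and the leak channel KCNK15 19.8 and 24.5. Of the 31 genes 21 were neural, 6 of wide or other use, 2 cardiac or smooth muscle, 1 epithelial and 1 skeletal muscle. Neural genes were also 26 of the 39 silent members, and 80.8% of them were marked, close to the 79.5% of all silent members. Weak marks closed the list, with KCNK16 at 3.82 and 5.55 and CACNA1I at 3.21 and 4.43.

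All 8 KCNA pores carried H3K4me3 with 1 of them expressed, and all 7 KCNH and all 9 CACNA1 genes were marked, beside 83.1% of genes with a symbol. Of 7 SCN pores SCN8A and SCN2A were marked (28.6%), with SCN2A at 16.6 and 15.3. SCN3A, SCN9A, SCN10A and SCN11A had neither mark within 1 kb. No count fell on 5 members in any library. Of these, KCNE2 and KCNH6 had H3K4me3, KCNG4 had H3K27ac of 5.68 and 7.94 without it, and KCNU1, a sperm channel, and SCN10A had neither mark.

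Expressed members without H3K4me3 at the TSS were 5 of 51 (9.80%; background 9.47%). The share stood further above the background under other settings, at 11 of 62 (17.7%; background 10.2%) with expression over 0.5 TPM, at 9 of 51 (17.6%; background 11.9%) at q under 1e-05, and at 9 of 51 (background 12.9%) when the peak had to cover the TSS. The 5 were KCNE4, KCNJ15, KCNRG (a regulator of potassium channel assembly, 2.78, 4.63 and 3.53 TPM), SCN4A and KCNK2 (the TREK-1 leak channel, 1.78, 1.86 and 1.38 TPM). In 3 of them a reproducible H3K4me3 region lay inside the gene. That of KCNK2 stood 104 kb from the lifted start with 27.7 and 27.5, that of KCNE4 68.9 kb away with 6.75 and 9.59, and that of SCN4A 26.3 kb away with 5.78 and 4.79. KCNJ15 and KCNRG had none in the gene body. Whether the lifted models start at the true TSS was not tested.

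H3K27ac regions without H3K4me3, the usual candidate enhancers, were counted within 100 kb of each start. At least 1 was present for 97 members (83.6%; background 93.9%), with a median of 4.5 per member against 6 for genes with a symbol. When each region was given only to its nearest start, the shortfall was gone, with 79 members (68.1%; background 67.5%) and a median of 2 against 1. Expressed members had a median of 8, silent members 5 and those in between 2. Among genes with a symbol the medians were 6 for expressed and 4 for silent ones, both below those of the members. Over all 116 members the number of regions and log TPM were weakly related (r = 0.156, rho = 0.120). In all 738 distinct regions were counted, 59 of them in the windows of more than 1 member, with a median length of 536 bp and a median fold enrichment of 4.22. Of the 800 pairs of member and region 256 lay inside the member's own gene body, and in 409 no other gene start was nearer.

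KCNAB2 had the most regions (30), of which 18 lay in its gene body. CACNG2, or stargazin, followed with 24 although it was silent at 0.224, 0.247 and 0 TPM. SCN4A had 23, KCNC4 22, and the silent genes CACNA1I and KCNJ9 also 22. For KCNJ9, an inward rectifier of neurons, only 2 of the 22 had its start as the nearest, and it shared 16 with its neighbour KCNJ10. The muscle genes CACNA1S and KCNJ11 had 19 and 18, and CACNG1 had 4. CACNA2D1 and KCNJ2 had none within 100 kb despite 17.5 and 12.4 TPM. The strongest region near KCNK7 had 2.45 in pool 1 and 33.2 in pool 2, so its mean rests on pool 2. CACNA1G had its strongest 60.5 kb upstream with 7.51 and 8.53, alike in both pools.

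**Figure D5:**
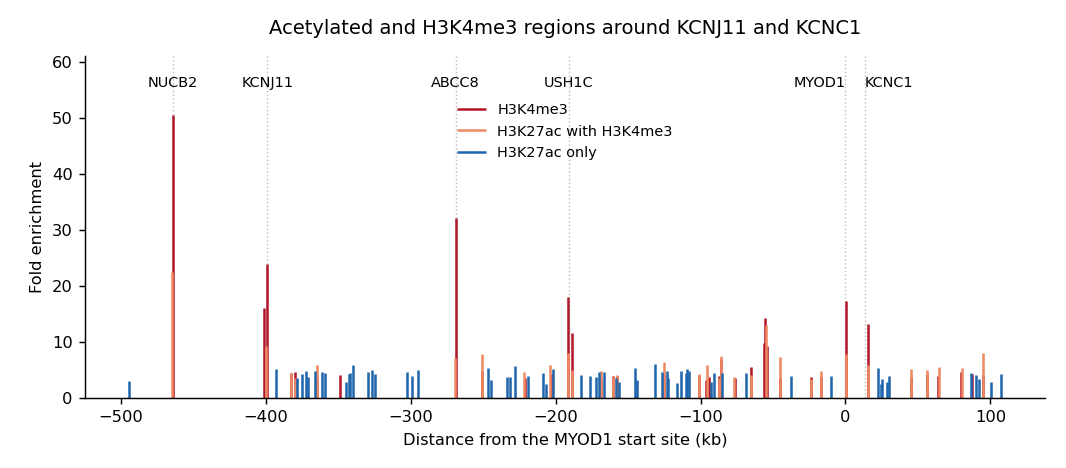
Fold enrichment (mean of both pools) of H3K4me3 regions, H3K27ac regions that share bases with them and H3K27ac-only regions, against distance from the MYOD1 start in kb; dotted lines are gene starts. KCNJ11 and ABCC8 lie 399 and 269 kb to the left of MYOD1 and KCNC1 13.3 kb to the right.

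Members within 500 kb of each other formed 22 pairs of neighbours. In 9 pairs 1 gene was expressed and the other was not, in 10 neither was and in 3 both were, beside 44.0% of all members expressed. Whether neighbours differ more or less often than unrelated members was not tested. On scaffold00013_pilon_pilon, KCNJ11 and KCNC1 lay 412 kb apart on either side of MYOD1, the muscle determination gene, which had 261 ± 45.8 TPM. KCNC1, a fast potassium channel of neurons, had 2.35, 1.93 and 2.43 TPM, and its start was 13.3 kb from that of MYOD1. Of the 14 H3K27ac-only regions within 100 kb of KCNC1, 12 were also within 100 kb of MYOD1, and none of the 18 near KCNJ11 was. Of those 18, 17 lay upstream of KCNJ11, on the side of ABCC8. ABCC8, which encodes a sulfonylurea receptor that pairs with Kir6.2, had 1.71 ± 0.34 TPM, and ABCC9, the other receptor, 2.73 ± 0.666 TPM, both far under the 37.9 TPM of KCNJ11.

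Some neighbours differed widely in RNA. CACNG7 and CACNG8, 4.91 kb apart on the same strand, had 16.3 ± 5.77 TPM and 0.455 ± 0.313 TPM, and both H3K27ac-only regions near one were near the other. CACNG1 and CACNG4, 121 kb apart, had 40.6 ± 4.54 TPM and 1.61 ± 0.565 TPM. KCNJ2 and KCNJ16, 122 kb apart, had 12.4 ± 4.2 TPM and 1.46 ± 0.705 TPM. SCN4B and SCN2B, 27.8 kb apart, had 3.06 ± 1.27 TPM and 0.275 ± 0.112 TPM, and KCNJ15 and KCNJ6, 236 kb apart, 5.62 ± 1.6 TPM and 0.335 ± 0.0574 TPM. Along one stretch KCNA3, KCNA2, KCNA10 and KCNC4 had 0.22, 3.9, 2.24 and 5.64 TPM, and all 4 starts carried H3K4me3. Of these KCNA10 was in between, at 4.16, 1.83 and 0.738 TPM, and its mark was weak at 3.52 and 3.26. In a second stretch KCNA6, KCNA1 and KCNA5 had 0.912, 0.262 and 0.825 TPM, none expressed and all marked. KCNK16, KCNK17 and KCNK5 had 0.0672, 0.0542 and 3.55 TPM. SCN3A and SCN2A lay 42.5 kb apart, SCN11A and SCN10A 178 kb, KCNE1 and KCNE2 84.8 kb, KCNJ10 and KCNJ9 34.2 kb, and KCNIP1 and KCNMB1 163 kb, and no gene of these pairs was expressed.

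Lists of channels and pumps outside the family ranged from 43.8% to 91.7% expressed, beside 44.0% of the members and 75.3% of genes with a symbol. The sodium pump list had 7 of 9 genes expressed (77.8%), among them the beta subunits ATP1B1 with 207 ± 49.1 TPM and ATP1B3 with 196 ± 21.8 TPM. Chloride channels had 11 of 12 expressed (91.7%), led by CLCN3 (39 ± 13.7 TPM), CLCN5 (38.4 ± 13.7 TPM) and ANO5 (29.7 ± 4.23 TPM). Epithelial sodium and acid-sensing channels had 5 of 6 (83.3%), led by SCNN1A (29.1 ± 12.4 TPM), SCNN1B (7.88 ± 5.25 TPM) and ASIC3 (7.15 ± 2.94 TPM). Mechanosensitive and TRP channels had 8 of 15 (53.3%), led by TRPM4 (78.1 ± 11 TPM), PIEZO1 (43.5 ± 1.75 TPM) and PKD2 (22.3 ± 8.95 TPM). Pacemaker and cyclic nucleotide gated channels had 4 of 9 (44.4%), led by the olfactory subunits CNGA2 and CNGA4 with 15.5 ± 8.4 and 7.44 ± 1.85 TPM and by HCN2 with 7.21 ± 0.267 TPM. Channel anchors and modulators had 7 of 16 expressed (43.8%), led by REST, a repressor of neuronal genes, with 14.1 ± 3.47 TPM, and by FGF11 and FGF12 with 12.5 ± 2.04 and 9.0 ± 2.73 TPM.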

How the data were processed

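The deposited table gave counts per gene, made by the authors with Trimmomatic 0.39, HISAT2 2.21 and featureCounts of Subread 2.0.1, counting the reverse strand over exons of Tasmanian devil models lifted to dunnart scaffolds. Deposited peaks (Bowtie2 2.3.5.1, MACS2 2.1.1, each pool against its own input) gave fold enrichment as a ratio and −log10 q, filtered at q under 0.05. Summed exon length, from the authors' table, turned counts into TPM over 21692 usable models, because 11 models were split over 2 lines and left out, none of them a member. A region was reproducible where peaks of the pools shared at least 50% of either length. Pool 1 gave its interval, and both pools its fold enrichment. Floors of 3 counts cover counting error only.

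The 14158 genes with a symbol formed the background. Of 116 members 114 symbols were matched in RefSeq's table for assembly ASM4859323v1, used for names alone. The columns FP1 to FP3 carry no replicate numbers. The genes named are the most abundant overall and by group, the strongest silent marked starts, expressed members without H3K4me3, those richest in H3K27ac-only regions, members within 500 kb of each other, those nearest a threshold, and the leaders of each list; others were named after their values were seen. Some genes that this rule takes are not reported here, though they remain in the counts. Members, groups and lists were chosen with earlier results of these data known. Scripts were tested on simulated data (Python 3.11.15, pandas 2.3.3, edgeR 4.0.16 in R 4.3.3 for TMM).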

Additional observations from a re-analysis of the deposited data

How the results depend on the processing

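In 83 alternatives to 11 counts and medians, 72 stayed close to the value given and 11 did not. Close means within 1.5 times for counts and for the number of regions, and within 1 SD of the replicates for medians of TPM and fold enrichment. Alternatives that changed only the background kept the members' value by design, so their place among the 72 says nothing of stability. Counts near the total of members had no room to rise 1.5 times. For fold enrichment by pool, the SD came from the same pool medians that it judged. With silence set under 0.1 TPM, 14 members were silent (12.1%; background 8.85%) and 9 of them had H3K4me3 (64.3%; background 50.0%). Expressed members without H3K4me3 became 11 (17.7%; background 10.2%) with expression over 0.5 TPM, 9 (17.6%; background 11.9%) at q under 1e-05, and 9 (17.6%; background 12.9%) when the peak had to cover the TSS, so this share was near the background only in part of the settings. The median of H3K27ac-only regions became 2 at q under 1e-05, 2 within 50 kb, 9 within 200 kb, 2 for the nearest TSS, and 6 and 7 for pool 2 and pool 1 alone. For the nearest TSS the members' median of 2 stood above that of genes with a symbol (1), the opposite of the order within 100 kb, and 68.1% of members had a region, against 67.5%. Leaving out 1 RNA library gave 52 to 55 expressed members, 39 to 46 silent, 31 to 38 silent with H3K4me3, 6 to 7 expressed without it, and a median of 0.862 to 1.24 TPM. One pool alone gave 97 to 99 members with H3K4me3, 102 with H3K27ac, 32 to 33 silent with H3K4me3, 5 expressed without it, and 107 to 109 with an H3K27ac-only region. Median H3K4me3 fold enrichment was 18.2 to 22.6 in silent and 24.8 to 31.3 in expressed members by pool. Without regions that cover another start, an alternative chosen after seeing the data, 28 silent members stayed marked. Over all gene models the background was 56.5% expressed, 67.7% with H3K4me3 and, chosen after seeing the data, 33.7% silent and 33.2% of silent models with H3K4me3. No paired analysis was possible because no result comes from a test. Levels near the floor rest on few counts, such as 7, 4 and 1 for CACNG8.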
